A study of Mus musculus with 4 samples.

Results

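The 10 genes described here keep cells epithelial or seal epithelial sheets. They are the splicing regulators *Esrp1* and *Esrp2*, the transcription factors *Grhl1*, *Grhl2*, *Ovol1*, *Ovol2* and *Elf3*, and the claudins *Cldn3*, *Cldn4* and *Cldn7*, and they are 10 of the 21938 genes that GENCODE M21 lists as protein-coding. They were chosen by name, with earlier results of these data known. Their loci were taken as each gene body with 20 kb on each side on mm10. These windows covered 686809 bases and held 280 of the 489558 ATAC-seq peaks listed for the 4 libraries of the study, and 185 of the 357570 regions that were left after overlapping peaks were merged.

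ATAC-seq reads open chromatin from the places where a transposase inserts into DNA, and it was performed to compare SCLC metastasizing cells (SMC) with non-metastasizing cells (non-SMC). Both cell types came from lung tumors of the *RP* model of small-cell lung cancer (*Rb1*L/L with *Trp53*L/L), in which both floxed genes are removed in the airway by an adenovirus that expresses Cre from the CMV promoter and was given at an age of 6 to 8 weeks, on a mixed background of C57Bl/6, Balb-c and S129. SMC are NCAMhiCD44lo/- and non-SMC are NCAMloCD44hi cells, sorted and then kept untreated as cell lines in RPMI1640. The 4 cell lines, SMC line 1 and 2, then non-SMC line 1 and 2, gave 1 library each, so each type had n = 2, and sets of 4 values follow this order. Both types thus carry the loss of *Rb1* and *Trp53*, normal epithelium was not among the samples, and the age of the mice when the tumors behind each line were taken is not given in the sources used here.

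ESRP proteins bind RNA and select the epithelial forms of exons, for example in the transcripts of *Fgfr2* and of *Cd44*. GRHL and OVOL factors switch on junction genes or hold down *Zeb1* and other genes of the mesenchymal state, and ELF3 is an ETS factor of epithelia. Claudins form the strands of the tight junction, and ZEB and SNAI factors can silence several of these genes through E-boxes when epithelial cells become mesenchymal.

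Each peak is described by the distance of its summit from the transcription start site (TSS) at the 5′ end of the gene, negative when upstream, and by the percentile of its fold enrichment within the list of its own line. Fold enrichment is the pileup of reads at the summit over the local background, and it depends on the depth of its own library, so values were not compared between lists. The lowest -log10 p in the lists was between 2.00 and 2.01, and a site that is not listed is not thereby closed. A -log10 q of at least 5 marked the stronger peaks, and these were 14.3%, 17.1%, 38.0% and 19.5% of the 4 lists. A percentile thus also depends on how many weak peaks its list holds, and percentiles of different lines are not on a like scale. A promoter was the 6 kb centred on the TSS. A promoter or region is called SMC-only when a peak was listed there in each SMC line and in no non-SMC line, and non-SMC-only when the reverse held. With 2 lines of each type the smallest two-sided p of an exact permutation test is 0.333, so the types are compared without a test, by setting a difference beside the SD among lines of the same type.

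The libraries differed in depth. The kept lists held 91057, 153954, 115837 and 128710 peaks, and the lowest background pileup, which follows depth, was 0.456, 1.54, 1.49 and 0.639. Over all protein-coding genes, a promoter peak was listed at 62.2%, 69.3%, 64.6% and 64.9%, and a stronger one at 27.7%, 41.0%, 49.5% and 36.4%. The promoters of the neuroendocrine markers *Ncam1*, *Insm1*, *Chga* and *Syp* had a peak at 4, 4, 3 and 2 of 4 genes and a stronger one at 2, 4, 1 and 1. That of *Chga* was SMC-only (3.08% of all genes). Those of *Cd44*, *Vim* and *Wwtr1* had a peak at 1, 3, 3 and 3 of 3 genes and a stronger one at 0, 0, 3 and 3. *Ncam1* and *Cd44* encode the proteins of the sort and are no finding. Of 6 genes of immune, endothelial and fibroblast cells, 3, 2, 4 and 4 had a promoter peak and 0, 0, 2 and 1 a stronger one. These counts were near or below the shares over all genes. The promoter of *Pecam1* was non-SMC-only (2.45% of all genes), and no promoter peak was listed at *Cd3e* in any line (19.2%). With stronger peaks the fibroblast gene *Col1a1* was non-SMC-only (5.3% of all genes), with a -log10 q of 16.4 and 11.1 in the non-SMC lines. The part of other cells in the results was not tested, and in these bulk libraries more cells with an open site and a more open site per cell cannot be told apart.

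The promoters of the 10 genes carried a peak more often in SMC than in non-SMC. A peak was listed at 9 of 10 promoters in each SMC line, at 5 in non-SMC line 1 and at 7 in the other non-SMC line, against 62.2%, 69.3%, 64.6% and 64.9% of all protein-coding genes. The difference of 3 promoters (9 ± 0 in SMC and 6 ± 1.41 in non-SMC; SD, n = 2) was larger than the pooled SD between lines of 1. Stronger peaks were listed at 5, 8, 3 and 2 of the 10 promoters, against 27.7%, 41.0%, 49.5% and 36.4% of all genes. Here the difference of 4 exceeded a pooled SD of 1.58, and the 2 types did not overlap, although non-SMC line 1 had the most promoters with stronger peaks over all genes. These 2 differences were chosen as measures after the data had been seen.

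By pattern, the promoters of *Esrp1*, *Ovol1* and *Cldn3* were SMC-only, 3 of 10 where 3.08% of all protein-coding genes had this pattern. The promoter of *Cldn4* was non-SMC-only, 1 of 10 against 2.45% of all genes. *Esrp2*, *Grhl1*, *Cldn7* and *Elf3* had a promoter peak in every line, 4 of 10 where the share of all genes was 48.7%, and *Grhl2* and *Ovol2* lacked one in non-SMC line 1. Without non-SMC line 2, these 2 also counted as SMC-only. With stronger peaks, *Esrp1* and *Cldn3* were SMC-only (1.63% of all genes), none was non-SMC-only (5.3%) and *Grhl1* and *Elf3* were present throughout (21.4%). *Ovol2* and *Cldn4* had no stronger promoter peak in any line, as did 43.5% of all genes. In a narrower promoter of 2 kb the SMC-only genes were 6, namely *Esrp1*, *Esrp2*, *Ovol1*, *Ovol2*, *Cldn3* and *Cldn7* (3.17% of all genes), *Cldn4* was again the non-SMC-only gene (2.19%), and *Grhl1* and *Elf3* had a peak in every line (42.7%).

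**Figure D1:**
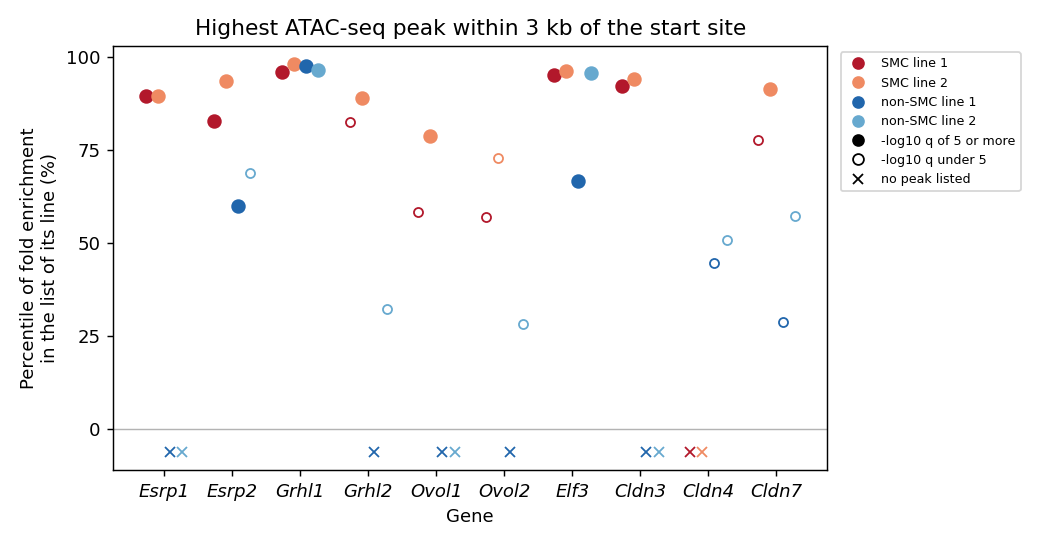
Highest peak within 3 kb of the TSS for each gene (x axis) as the percentile of its fold enrichment in the list of its own line (y axis, %). Each point is 1 line; filled points had a -log10 q of at least 5 and crosses mark promoters without a listed peak. SMC points lie above the non-SMC points or crosses at *Esrp1*, *Esrp2*, *Grhl2*, *Ovol1*, *Ovol2*, *Cldn3* and *Cldn7*, while *Cldn4* shows crosses for both SMC lines. Percentiles are ranks within lists of unequal length, so their order between lines is not a measured difference in signal.

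Over the whole windows the 2 types were closer. They held 65 and 84 peaks in the SMC lines and 61 and 70 in the non-SMC lines, and the SMC mean of 74.5 ± 13.4 and the non-SMC mean of 65.5 ± 6.36 (SD, n = 2) differed by 9, less than the pooled SD of 10.5. As a share of each list the windows held 0.0714%, 0.0546%, 0.0527% and 0.0544% of the peaks. Of the stronger peaks there were 11, 22, 20 and 16, with the order of the means turned. The log2 ratio of the SMC to the non-SMC mean was 0.19 over all peaks, 0.70 within the gene bodies alone and -0.011 without SMC line 2. The windows of *Esrp1* and *Grhl1* had more peaks in each SMC line than in each non-SMC line, 2 of 10 where 13.1% of all gene windows had this order. The opposite order was found at 0 of 10 windows and at 13.6% of all windows.

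**Figure D2:**
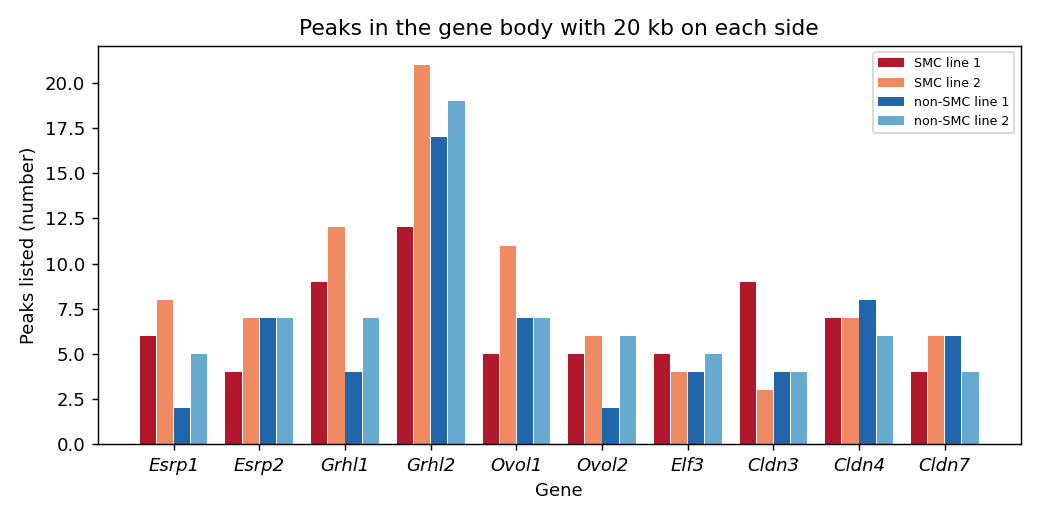
Number of peaks (y axis) in the window of each gene (x axis) by line. Bars are single libraries without error bars; *Grhl2*, the widest window, held 12, 21, 17 and 19 peaks, and only *Esrp1* and *Grhl1* have both SMC bars above both non-SMC bars.

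Most regions of the windows were seen once. Of the 185 regions, 131 had a peak in 1 line, where the share over all regions was 76.9%. A further 14 regions were SMC-only (4.37% of all regions), 12 were non-SMC-only (7.33%) and 12 had a peak in every line (3.81%), with 8 in 3 lines and 8 in 1 line of each type. The patterns differed in place. Of the 14 SMC-only regions 9 had their summit in the promoter of one of the 10 genes, 3 lay in introns and 2 outside genes. Of the 12 non-SMC-only regions 2 lay in such a promoter, 4 in introns and 6 outside genes. Of the 12 regions found in every line, 2 lay in a promoter of the 10 genes and 6 in a promoter of a neighbour. Over the genome, 9.55% of SMC-only regions, 7.58% of non-SMC-only regions and 64.4% of those in every line had a summit within 3 kb of a TSS. Each window holds the TSS of its gene by construction, so these shares are not a like background for the places in the windows. Counted by gene, 7 of 10 promoters held an SMC-only region (6.67% of all genes), namely those of *Esrp1*, *Esrp2*, *Grhl2*, *Ovol1*, *Ovol2*, *Cldn3* and *Cldn7*, and 2 of 10 held a non-SMC-only region (9% of all genes), those of *Esrp2* and *Cldn4*. The promoters of *Grhl1* and *Elf3* held a region found in every line (43% of all genes). Without non-SMC line 1, the count for non-SMC-only regions was 4. This count by gene was chosen after the data had been seen, and with a reciprocal overlap of 50% or stronger peaks it was 3 for SMC-only regions. When only stronger peaks were merged, 39 regions remained in the windows, of which 4 were SMC-only (6.12% of all such regions), 4 were non-SMC-only (20.1%) and 5 were present throughout (7.26%). The stronger SMC-only regions were the promoters of *Esrp1* and *Cldn3*, the region inside *Esrp2* and the region beyond *Elf3*, and the non-SMC-only ones lay at *Grhl2*, *Ovol1*, *Cldn3* and *Cldn4*.

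**Figure D3:**
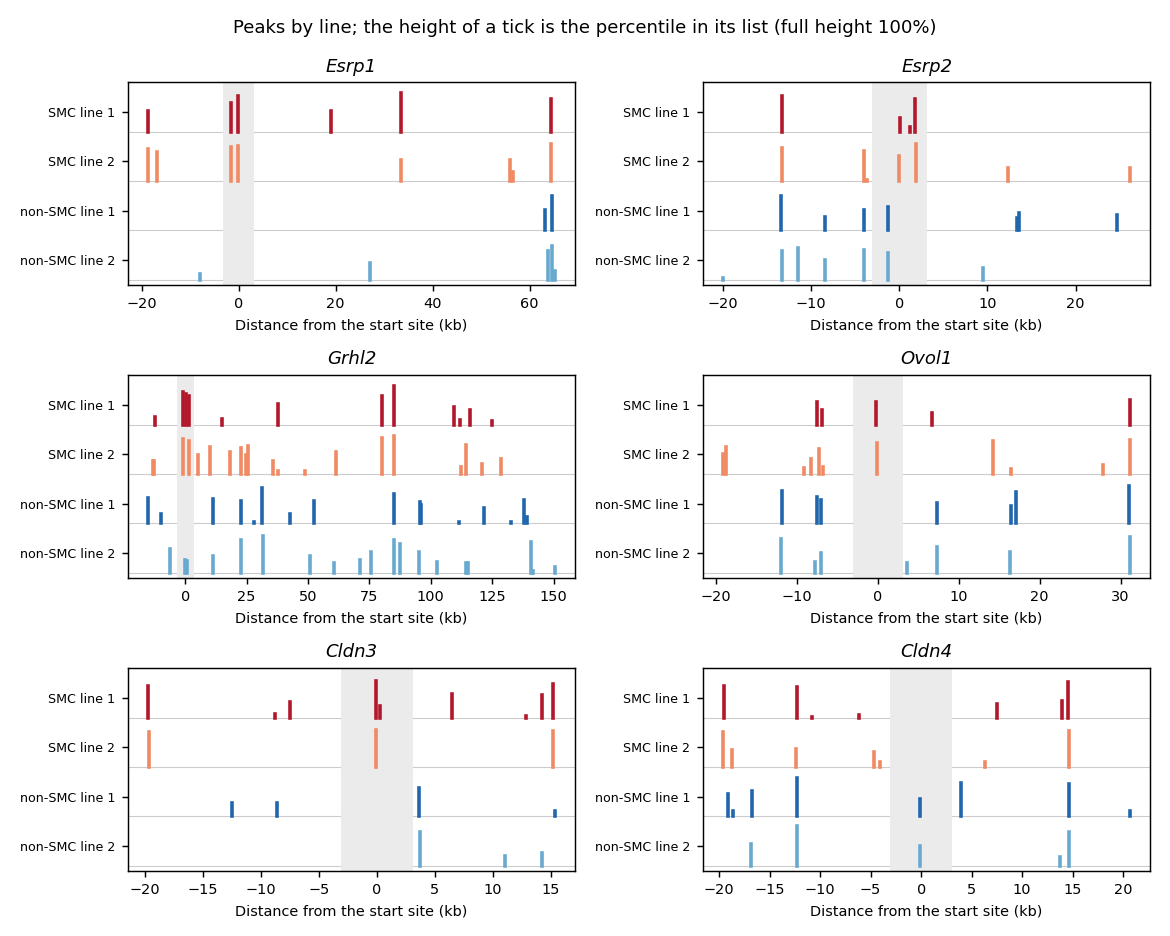
Peaks of 6 windows by line (rows), placed by the distance of the summit from the TSS (x axis, kb); the height of a tick is the percentile of its fold enrichment in its own list, and the grey band marks the promoter. At *Esrp1*, *Ovol1* and *Cldn3* the band holds ticks in the SMC rows only, and at *Cldn4* in the non-SMC rows only.

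*Esrp1* (chr4:11331933-11386783, minus strand) encodes an ESRP splicing regulator, and its promoter had a peak in SMC only. Its window held 6, 8, 2 and 5 peaks, with a median local background of 1.31, 1.25, 2.24 and 1.26 times the lowest of each library. The promoter had 2, 2, 0 and 0 peaks. The peak at the TSS had its summit at -172 bp in SMC line 1 and at -39 bp in SMC line 2, at percentiles 89.4 and 89.5, with a -log10 q of 7.97 and 14.1. Local background at these summits was 3.6 and 3.1 times the lowest, above the median of the window, and its part was not tested. Further SMC-only regions lay at -1477 bp and, outside genes, at -18574 bp. Another lay in an intron at 33572 bp, where SMC line 1 had its highest peak of the window (fold enrichment 10.9, percentile 98.4, -log10 q 15.1) and SMC line 2 a weak one (percentile 54.6, -log10 q 1.28). In SMC line 2 and in both non-SMC lines, the highest peak of the window lay at the promoter of the neighbour *Dpy19l4*, at percentiles 93.9, 86.4 and 86.7, and this promoter had a peak in every line. The 2 sequences shown are the SMC-only promoter and intronic regions of *Esrp1*, printed as 201 bases around the summit of the highest peak on the forward strand, as are the sequences that follow. Capitals mark matches to 7 words on either strand. The words were AACNNGTT (Grainyhead-like), CCGTTA (OVOL), AGGAAG (ETS, the family of ELF3), CAGGTG (E-box bound by ZEB and SNAI factors), TGANTCA (AP-1), GGAATG (TEAD) and TGTTTAC (FOXA). The promoter stretch held none of these words, and the intronic stretch held a FOXA and an ETS word.
Esrp1 promoter, SMC-only, chr4:11386855-11387055: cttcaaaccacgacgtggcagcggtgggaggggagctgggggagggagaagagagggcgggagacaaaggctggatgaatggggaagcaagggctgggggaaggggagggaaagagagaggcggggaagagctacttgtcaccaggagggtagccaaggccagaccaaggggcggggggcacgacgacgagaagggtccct
Esrp1 intron, SMC-only, chr4:11353111-11353311: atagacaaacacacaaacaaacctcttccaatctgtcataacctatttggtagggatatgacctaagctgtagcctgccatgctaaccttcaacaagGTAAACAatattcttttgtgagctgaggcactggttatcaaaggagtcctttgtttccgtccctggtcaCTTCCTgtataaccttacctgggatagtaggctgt

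*Esrp2* (chr8:106130319-106136974, minus strand), the second splicing regulator, had peaks of both kinds within 3 kb. Its window held 4, 7, 7 and 7 peaks and its promoter 3, 2, 1 and 1. An SMC-only region inside the gene at 1866 bp held the highest promoter peak of both SMC lines, at percentiles 82.9 and 93.5 and with a -log10 q of 7.22 and 30.4. A weaker SMC-only region covered the TSS, with its summit at 11 bp. The non-SMC lines had their promoter peak upstream of the TSS, at -1279 and -1318 bp, at percentiles 59.9 and 69.0, so that a promoter counted as shared held different regions in the 2 types. A second non-SMC-only region lay at -8379 bp. The local background was raised here in every line, with a median of 6.00, 2.47, 2.37 and 2.39 times the lowest of each library, and its part in the pattern was not tested. The promoter of the neighbour *Pla2g15* had a peak in every line. Both stretches are shown because they lie on either side of the same TSS. The SMC-only stretch held none of the 7 words, and the non-SMC-only stretch held 2 TEAD words and a Grainyhead-like word.
Esrp2 inside the gene, SMC-only, chr8:106135008-106135208: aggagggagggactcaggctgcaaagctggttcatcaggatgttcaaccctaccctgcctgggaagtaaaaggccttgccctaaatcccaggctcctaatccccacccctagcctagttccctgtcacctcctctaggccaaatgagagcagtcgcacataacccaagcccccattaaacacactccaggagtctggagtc
Esrp2 upstream, non-SMC-only, chr8:106138153-106138353: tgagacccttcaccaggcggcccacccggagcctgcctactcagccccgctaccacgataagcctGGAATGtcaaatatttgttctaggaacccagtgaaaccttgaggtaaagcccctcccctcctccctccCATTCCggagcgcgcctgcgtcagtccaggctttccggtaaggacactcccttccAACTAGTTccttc

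*Grhl1* (chr12:24572283-24617391, plus strand), a Grainyhead-like factor that acts in the epidermis, had a promoter peak near the top of the list in every line. The summits lay at -142, -114, -97 and -70 bp, at percentiles 96.0, 98.0, 97.6 and 96.7, and with a -log10 q of 11.9, 26.2, 35.9 and 15.3. The spread of the percentiles over the 4 lines was small, and the types overlapped. An intronic region at 28726 bp was also present throughout, at percentiles 40.9, 77.6, 60.8 and 91.2. The window held 9, 12, 4 and 7 peaks, but 1, 1, 1 and 4 of these were stronger peaks. Both regions that followed the cell type were non-SMC-only, at -7591 and -6797 bp, and the latter reached percentiles 64.8 and 88.0 in the non-SMC lines. *Grhl1* had no SMC-only region.

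*Grhl2* (chr15:37233036-37363569, plus strand), the Grainyhead-like factor that activates junction genes such as *Cdh1* and opposes *Zeb1*, had the widest window and the most regions, 54, of which 44 were seen in 1 line. Its window held 12, 21, 17 and 19 peaks. The promoter had 3, 3, 0 and 2 peaks. The highest lay at -813 and -781 bp in SMC, at percentiles 82.6 and 88.9, and at -159 bp in non-SMC line 2, at percentile 32.2. The highest peaks of the window lay inside the gene. In both SMC lines this was the region at 85083 bp, at percentiles 98.9 and 95.6, which was also listed in non-SMC lines 1 and 2 at percentiles 74.8 and 82.8. In both non-SMC lines it was the non-SMC-only region at 31432 bp, at percentiles 90.4 and 92.1 and with a -log10 q of 22.5 and 12.0. Further non-SMC-only regions lay at 11490 and 95733 bp, and SMC-only ones at 1510, 37840 and 80170 bp. The SMC-only region at 80170 bp had percentiles of 73.7 and 91.2 and lay just upstream of the region found in every line. The 3 intronic stretches show 1 region of each pattern within this gene. The non-SMC-only stretch held an AP-1 word, the SMC-only stretch also held an AP-1 word, and the shared stretch held none of the 7 words.
Grhl2 intron, non-SMC-only, chr15:37264368-37264568: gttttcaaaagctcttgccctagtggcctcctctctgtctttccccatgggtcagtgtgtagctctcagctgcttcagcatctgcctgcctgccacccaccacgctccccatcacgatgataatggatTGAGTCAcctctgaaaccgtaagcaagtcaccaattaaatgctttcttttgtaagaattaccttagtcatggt
Grhl2 intron, SMC-only, chr15:37313106-37313306: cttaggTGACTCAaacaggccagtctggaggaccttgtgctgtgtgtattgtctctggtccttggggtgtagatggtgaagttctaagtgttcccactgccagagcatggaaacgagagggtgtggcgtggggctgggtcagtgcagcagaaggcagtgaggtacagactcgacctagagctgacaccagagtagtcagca
Grhl2 intron, every line, chr15:37318019-37318219: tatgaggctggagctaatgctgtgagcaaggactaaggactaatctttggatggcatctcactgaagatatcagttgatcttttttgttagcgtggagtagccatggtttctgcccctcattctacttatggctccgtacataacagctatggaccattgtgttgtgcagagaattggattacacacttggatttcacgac

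*Ovol1* (chr19:5549136-5560646, minus strand) encodes a zinc finger repressor that acts in epithelial differentiation. Its promoter had 1, 1, 0 and 0 peaks, at percentiles 58.5 in SMC line 1 and 78.8 in SMC line 2. This was a weak call, with a -log10 q of 1.396 and 5.02. Elsewhere in the window the strongest type-specific signal was in non-SMC, at -11887 bp, with percentiles of 81.9 and 85.6 and a -log10 q of 29.3 and 8.66. Local background at this signal was 4.27 and 2.85 times the lowest of each library, and its part was not tested. A second non-SMC-only region lay in an intron at 7307 bp. The highest peak of the window in every line was a shared region at 31096 bp outside genes, at percentiles 62.1, 86.2, 93.4 and 89.8, and the promoter of the neighbour *Ap5b1* had peaks throughout. The window held 5, 11, 7 and 7 peaks in all. The upstream stretch is shown as the strongest type-specific region of the window, and it held none of the 7 words.
Ovol1 upstream, non-SMC-only, chr19:5572433-5572633: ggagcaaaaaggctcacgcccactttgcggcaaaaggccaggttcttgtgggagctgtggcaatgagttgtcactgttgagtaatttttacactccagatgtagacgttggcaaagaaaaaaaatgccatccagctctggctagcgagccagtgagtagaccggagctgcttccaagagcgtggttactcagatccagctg

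*Ovol2* (chr2:144305175-144332146, minus strand), the close relative that represses *Zeb1*, had no stronger peak in its window. The window held 5, 6, 2 and 6 peaks. The promoter had 3, 1, 0 and 1 peaks. The highest of these reached percentile 57.0 and 73.0 in the SMC lines, and 28.4 at the sole non-SMC peak, in line 2. The SMC-only region at 357 bp was the sole type-specific region of the window, and 10 of its 14 regions were seen in 1 line.

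*Elf3* (chr1:135253575-135258568, minus strand), the ETS factor, had a promoter peak in every line. Its window also held the sole SMC-only region of the 10 windows that lay away from a promoter and had stronger peaks in both SMC lines. The promoter summits lay at -36, -22, -657 and -17 bp, at percentiles 95.3, 96.3, 66.7 and 95.6, so non-SMC line 1 stood below the other lines and non-SMC line 2 lay between the SMC lines. The window held 5, 4, 4 and 5 peaks. Beyond the 3′ end of the gene, at 9893 bp from the TSS, an SMC-only region reached percentile 88.9 in SMC line 1 and 96.2 in SMC line 2, with a -log10 q of 5.89 and 19.99. Its sequence is shown because it held words of 4 of the 7 kinds, namely 3 ZEB and SNAI E-boxes, an AP-1, an ETS and an OVOL word.
Elf3 beyond the gene, SMC-only, chr1:135248575-135248775: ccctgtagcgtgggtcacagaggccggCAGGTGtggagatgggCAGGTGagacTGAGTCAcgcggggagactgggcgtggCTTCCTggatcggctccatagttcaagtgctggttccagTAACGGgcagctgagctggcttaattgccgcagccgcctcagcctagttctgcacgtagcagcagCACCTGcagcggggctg

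*Cldn3* (chr5:134986214-134987472, plus strand) and *Cldn4* (chr5:134945119-134946934, minus strand) are neighbouring tight junction genes whose windows overlap, and their promoters had opposite patterns. At *Cldn3* the promoter had 2, 1, 0 and 0 peaks. The summits lay at -60 bp in SMC line 1 and -49 bp in SMC line 2, at percentiles 92.3 and 94.1 and with a -log10 q of 10.3 and 23.2, which made them the highest peaks of the window in both lines. Local background at these summits was 3.84 and 3.18 times the lowest of each library, and its part was not tested. In the non-SMC lines the highest peak of the window lay downstream of the gene at 3762 bp, in a non-SMC-only region at percentiles 70.7 and 85.5 and with a -log10 q of 8.62 and 7.21. The window held 9, 3, 4 and 4 peaks, so the SMC lines differed more from each other than from non-SMC. At *Cldn4* the promoter had 0, 0, 1 and 1 peaks at -131 and -122 bp. These were weak, at percentiles 44.7 and 51.0 and with a -log10 q of 3.02 and 1.25. The window held 7, 7, 8 and 6 peaks.

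Between the 2 claudins, a region at -12325 bp from the *Cldn4* TSS had a peak in every line. It lay at percentiles 76.9 and 45.4 in SMC and at 97.3 and 99.3 in non-SMC, where it was the highest peak of the *Cldn4* window. Its -log10 q was 3.06, 1.26, 71.0 and 38.8, so that as a stronger peak it was non-SMC-only. A region at -16774 bp was non-SMC-only as well, at percentiles 64.0 and 54.1, and the promoter of the neighbour *Mettl27* had a peak in every line. The 4 stretches that set the claudins apart are the 200 bases before the *Cldn3* TSS, the region downstream of *Cldn3*, the *Cldn4* promoter and the region between the genes. The first held none of the 7 words, since the E-box of this region lies past the TSS and is not printed, and the second held 2 TEAD words and an ETS word. The *Cldn4* promoter stretch held an AP-1 word, and so did the stretch between the genes.
Cldn3 before the TSS, SMC-only, chr5:134986014-134986213: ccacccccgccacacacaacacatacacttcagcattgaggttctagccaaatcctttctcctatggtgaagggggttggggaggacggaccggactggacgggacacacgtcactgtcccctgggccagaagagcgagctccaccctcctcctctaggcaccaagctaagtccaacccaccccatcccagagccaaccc
Cldn3 downstream, non-SMC-only, chr5:134989876-134990076: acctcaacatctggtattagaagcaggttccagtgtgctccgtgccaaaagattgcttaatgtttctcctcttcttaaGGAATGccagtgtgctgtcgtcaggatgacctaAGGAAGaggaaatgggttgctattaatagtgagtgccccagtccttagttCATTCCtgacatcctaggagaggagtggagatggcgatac
Cldn4 promoter, non-SMC-only, chr5:134946965-134947165: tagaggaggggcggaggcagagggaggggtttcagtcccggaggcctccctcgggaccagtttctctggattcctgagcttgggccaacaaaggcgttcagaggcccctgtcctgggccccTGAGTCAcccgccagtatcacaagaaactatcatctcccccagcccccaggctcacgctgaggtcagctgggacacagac
Between Cldn4 and Cldn3, every line, chr5:134959159-134959359: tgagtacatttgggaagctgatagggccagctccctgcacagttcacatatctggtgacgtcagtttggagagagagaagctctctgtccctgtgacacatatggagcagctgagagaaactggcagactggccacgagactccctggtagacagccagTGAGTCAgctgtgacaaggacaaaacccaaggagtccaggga

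*Cldn7* (chr11:69964779-69967885, plus strand), a claudin of the lateral membrane, lies in a dense stretch with the promoters of *Slc2a4*, *Elp5* and *Ctdnep1*, all of which had a peak in every line. Its own promoter had 1, 2, 1 and 1 peaks. In SMC the highest lay in an SMC-only region at 606 bp, at percentiles 77.7 and 91.5 and with a -log10 q of 3.31 and 14.5. In non-SMC they lay farther into the window, at 2200 and 1243 bp and at percentiles 28.8 and 57.2. As at *Esrp2*, the promoter counted as shared held no region found in both types. Unlike at *Esrp2*, the 2 non-SMC peaks lay in separate regions, each seen in 1 line. Both were weak, with a -log10 q of 1.32 and 1.74. The window held 4, 6, 6 and 4 peaks, and 8 of its 11 regions were seen in 1 line.

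Across the type-specific regions, the 7 words were counted within 100 bp of the summit, as a description of sequence and not of binding. The E-box CAGGTG was found in 5 of the 14 SMC-only regions, at *Esrp2*, *Ovol2*, *Cldn3*, *Cldn7* and *Elf3*, where 31.6% of all SMC-only regions held it, and in 0 of the 12 non-SMC-only regions, where the share was 6.57%. The ETS word was found in 5 of 14 and 3 of 12 (25.1% and 26.6% of all regions of these patterns). The AP-1 word was found in 2 of 14 and 4 of 12 regions (6.59% and 55.5%), and the TEAD word in 1 of 14 and 4 of 12 (9.48% and 19.3%). The OVOL word was found in 2 of 14 and 0 of 12 (0.935% and 1.22%), the Grainyhead-like word in 1 of 14 and 1 of 12 (4.09% and 2.51%), and the FOXA word in 1 of 14 and 0 of 12 (9.40% and 3.25%).

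Relatives and partners of the 10 genes were listed beside them. The 11 relatives were *Grhl3*, *Ovol3*, *Elf5*, *Ehf*, *Spdef*, *Cldn1*, *Cldn6*, *Cldn8*, *Cldn9*, *Cldn12* and *Cldn23*. None had an SMC-only or non-SMC-only promoter (3.08% and 2.45% of all genes), and 4 had a promoter peak in every line (48.7%). A stronger one was listed at 4, 8, 6 and 4 of them, against 27.7%, 41.0%, 49.5% and 36.4% of all genes. With stronger peaks *Elf5*, an ETS factor of glandular epithelium, was non-SMC-only (5.3% of all genes). At *Grhl3* the promoter had 6 peaks in SMC line 2, the highest of them over a local background 69.4 times the lowest, while the median background of that line in the windows of the 10 genes was between 1.09 and 2.47 times the lowest. Of 25 other junction, polarity and membrane genes of epithelia, 3 promoters were SMC-only (3.08% of all genes). They were those of *Cdh1* (E-cadherin), *Epcam* (an epithelial surface adhesion protein) and *Ildr1* (a protein of tricellular junctions). Flow cytometry of the primary tumors in the study also used an antibody to EpCAM, although both cell types are defined by NCAM and CD44. None of the 25 was non-SMC-only (2.45%) and 12 had a peak in every line, near the 48.7% of all genes. With stronger peaks *Ocln*, which encodes the tight junction protein occludin, was also SMC-only (1.63% of all genes). *Prss8*, a membrane serine protease, and *Krt19*, a keratin, were then non-SMC-only (5.3%). Stronger peaks were listed at 13, 18, 11 and 8 of the 25 promoters, against 27.7%, 41.0%, 49.5% and 36.4% of all genes. Of 7 mesenchymal genes, *Zeb1*, *Zeb2*, *Snai1*, *Snai2*, *Twist1*, *Twist2* and *Vim*, 5 had a promoter peak in every line (48.7% of all genes). None was SMC-only or non-SMC-only (3.08% and 2.45%). Stronger peaks were listed at 1, 1, 6 and 3 of these 7 promoters, against the same shares of all genes by line. With them *Snai1* and *Vim* were non-SMC-only (5.3% of all genes). *Vim* was also counted above beside *Cd44* and *Wwtr1*, so those counts and these share this gene.

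**Figure D4:**
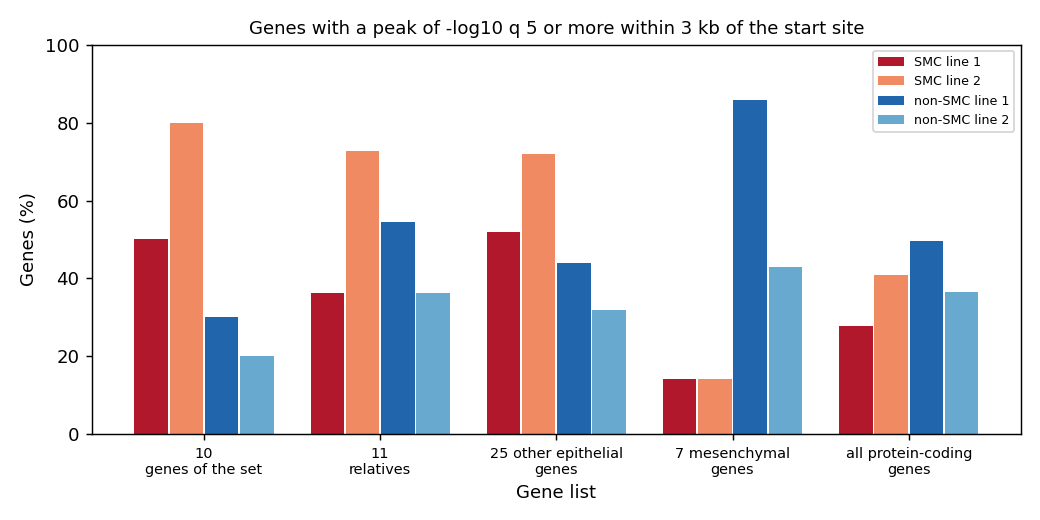
Share of genes (y axis, %) with a stronger promoter peak (-log10 q of at least 5) in each gene list (x axis) by line. Bars are single libraries without error bars; the 10 genes and the 25 other epithelial genes have both SMC bars above both non-SMC bars, the 7 mesenchymal genes have the opposite order, and over all genes non-SMC line 1 has the highest bar.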

How the data were processed

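Paired-end ATAC-seq reads of 4 libraries were mapped by the authors to mm10 with Bowtie2 2.3.4 and peaks were called per library with MACS2 2.1.1, versions that the submitters' processing notes give. The methods of the study also name removal of duplicates and give no settings for peak calling or for a shift of reads by the transposase. The authors deposited 1 peak list per library with a fold enrichment, which is a ratio of pileup to local background after 1 is added to both, and, for each summit, the p-value and the q-value as -log10. The integer score that the authors deposited with each peak was not used.

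Peaks of chromosomes 1 to 19, X and Y entered the analysis and were matched to GENCODE release M21 (protein-coding genes) with Python 3.11.15, numpy 2.4.6, pandas 2.3.3 and scipy 1.17.1, and sequences were read from GRCm38, the assembly of mm10, with pysam 0.24.0. An overlap of 1 base was enough, for windows of 20 kb on each side and promoters of 3 kb on each side of the TSS, and regions are merged overlapping peaks. Pileup and background were recovered from fold enrichment and p for all but 3 to 8 peaks per library, and the steps were tested on simulated data. The rule for named genes took the 10 genes, neighbours with a TSS in their windows, and list genes with a type-specific promoter. Beyond it, the members of the shorter lists are named to define them, and genes type-specific by stronger peaks alone, *Grhl3* and *Cd3e* were singled out after their values were seen. The genes, lists, words and rules were chosen with earlier results of these data known. Groups came from the sample titles, and nothing says whether the 2 lines of a type come from separate mice. The study states a total of ATAC-seq reads for each cell type, higher for SMC than for non-SMC, but not for each library. Read counts were not among the values used, so the depth of each library is unknown beyond the recovered background. RNA-seq of these cells was not analysed here. Some items are not reported here.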

Additional observations from a re-analysis of the deposited data

How the results depend on the processing

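Of 90 recomputed values, 55 stayed within the spread or within 1.5 times the count given, 32 moved and 3 turned. The log2 ratio of peaks in the windows (0.19) was -0.13 with a -log10 q of at least 5, -0.024 with 50 kb on each side and 0.70 within gene bodies, and ran from -0.011 (without SMC line 2) to 0.36 with each line left out in turn. The labels call the lines paired and number them, but do not say that a number marks a shared mouse. With the replicate number as a block the mean within pairs was 0.18, with 0.09 in pair 1 and 0.26 in pair 2, and deviations of same-numbered lines over 21938 gene windows had r = 0.0561, given as a description.

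SMC-only regions (14) were 4 with the stronger peaks and 16 to 59 with a line left out, where fewer lines are required by construction. Non-SMC-only regions (12) were 4 with the stronger peaks, 4 in gene bodies, 23 with 50 kb and 13 to 47 with a line left out. SMC-only promoters (3) were 6 with promoters of 2 kb and 3 to 5 with a line left out, and the non-SMC-only promoter (1) was 0 with the stronger peaks and 1 with any line left out. Genes with more peaks in both SMC lines (2) were 1 with the stronger peaks, with the same number of peaks per library (91057) and with 50 kb, 4 in gene bodies and 3 to 4 with a line left out. Those with more in both non-SMC lines (0) were 1 with the same number of peaks and with 50 kb, and 0 to 3 with a line left out.

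Promoters with an SMC-only region (7) were 3 with the stronger peaks or a reciprocal overlap of 50% and 7 to 8 with a line left out. Those with a non-SMC-only region (2) were 0 with the stronger peaks, 1 with promoters of 2 kb and 2 to 4 with a line left out. The difference in promoters with a peak (3) was 4 with the stronger peaks, 5.5 with promoters of 2 kb, 2 with the TSS of every transcript and 2 to 4 with a line left out. The causes of these shifts were not tested. The unequal depth of the libraries limits what an unlisted peak can show, and without read counts no region could be compared by its signal between lines.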
